A study of Populus alba x Populus glandulosa with 12 samples.

Results

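NAC proteins are transcription factors of plants that share a DNA-binding NAC domain. The set described here is every gene of the deposited leaf table whose Arabidopsis description holds NAC as a separate upper-case word: 139 of 34749 genes. Leaves of a hybrid poplar, Populus alba × P. glandulosa, gave 12 RNA-seq libraries, 4 from nontransgenic control plants (CK), 4 from line 2 and 4 from line 7 of plants overexpressing PagSUPa (OE). All 3 groups carried no other labelled treatment. The labels give neither the age of the plants nor the promoter of the transgene, and they do not say whether the 4 replicates of a group came from separate plants. The p-values thus reflect how far these libraries scatter, and that scatter could be technical. Values are TPM, the length-corrected share of each transcript in its library on a common total, so levels of different genes can be compared.

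In Arabidopsis, NAC factors act as switches of cell fate and of ageing. NST, SND and VND proteins turn on the thickening of the secondary cell wall in fibres and vessels, and VNI2 and XND1 hold that programme back. NAP and its relatives promote leaf senescence and JUB1 delays it, while ATAF1 and RD26 respond to drought and abscisic acid. Some NAC factors are held at membranes by a tail and are released under stress. ANAC017 is such a factor and carries signals from mitochondria to the nucleus.

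The 139 genes were paired in the table with 49 Arabidopsis loci, 5 of them with a single poplar gene and at most 9 poplar genes to a locus. Gene names in this text are those of the paired Arabidopsis gene, and poplar genes are told apart by their identifiers. The word rule also took 3 genes that are not transcription factors. They encode the alpha subunit of the nascent polypeptide-associated complex, a chaperone at the ribosome that shares the abbreviation, and 136 members were left without them. A pair of rows, Potri.012G141700 and Potri.015G144600, were described as VASCULAR-RELATED NAC-DOMAIN 6 but paired with AT5G52380, a different locus from that of VND6, so they were kept apart from the vessel factors. Conversely, 2 genes paired with NAC loci of the lists lacked the word and are not members. These were a homolog of NTL8 (Potri.009G161300), with a log2 fold change of -0.58 (SE 0.17, limma adjusted p = 0.0132), and a homolog of TIP (Potri.014G108100) that was too low to test.

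No row of the table bears the name PagSUPa or SUPERMAN. Potri.002G041700, which is paired with the SUPERMAN relative ZFP11 and was chosen after its values were seen, was at 0 to 0.112 TPM in controls and at 1210 to 1714 TPM in OE libraries. Marker genes of leaf mesophyll summed to 51141 to 60333 TPM across the controls, 26412 to 57053 TPM across line 2 and 35028 to 47457 TPM across line 7. Of 10 tested mesophyll markers 2 fell and 0 rose. Each library had 22710 to 24607 genes at 1 TPM or more. TPM keep no record of sequencing depth, so the depth is unknown and no counting interval is given. Control replicates 1 and 2 stood apart, with median ratio factors of 1.22 and 1.20 against 0.874 to 1.05 in the other libraries, and counts of calls were also made without them.

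Of the 139 members, 89 reached a TPM of 1 in at least 4 libraries and were tested with limma. Among the other 50, 36 stayed under 1 TPM in every library. Averaged over the OE lines and set against the control, 33 of the 89 tested members rose (37.1%) and 22 fell (24.7%), at an adjusted p under 0.05. Of all 24926 genes tested, 22.1% rose, 34% fell and 56.1% changed either way, so a larger share of the members rose than of all genes and a smaller share fell. The median log2 fold change was 0.25 over the tested members and -0.13 over all tested genes. At least 1 on the log2 scale was gained by 19 members and lost by 15, where 9.1% and 10.9% of all genes did so. Every OE library lay above every control for 23 tested members and below for 16. Among all genes these shares were 14.6% and 19.1%. The filter admits genes high only in OE libraries more easily than genes high only in controls, as the controls are fewer. Of the 33 that rose, 7 had no control at 1 TPM, and of the 22 that fell, 3 had no OE library there. With no filter, 54.7% of the calls among all 139 members were rises, against 37.5% over all 34749 genes. The median log2 fold change was then 0.01 over the members and -0.06 over all genes. Scaled by median ratios in place of the TPM total, 7517 of all genes rose and 6778 fell, against 5511 and 8469, and 38 members rose and 20 fell. Without control replicates 1 and 2, 18 members rose and 11 fell of 84 tested (21.4% and 13.1%). Of all 24135 genes tested in that fit 15.8% rose and 12.6% fell, so there the share of members that fell was close to that of all genes.

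**Figure D1:**
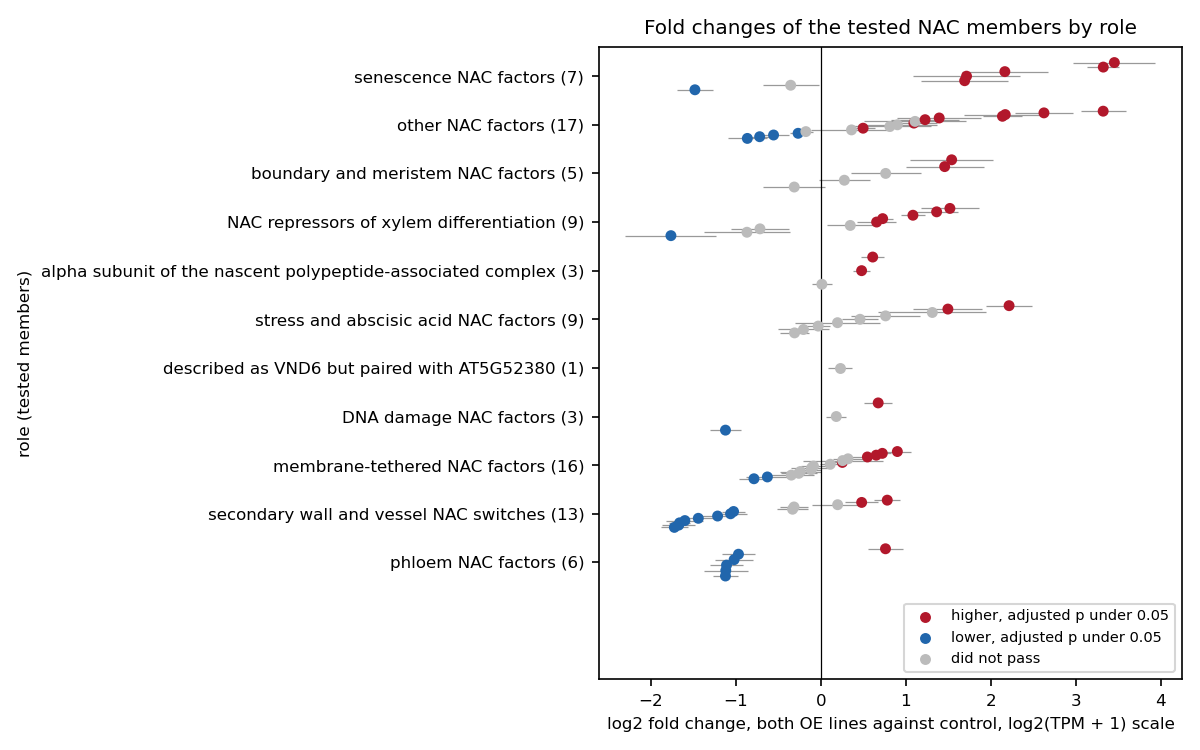
Log2 fold change of each tested NAC member, both OE lines averaged and set against the control, on the log2(TPM + 1) scale (x axis), by role list (y axis). Points are members, bars are ± SE, and colour marks members that rose (red), fell (blue) or did not pass (grey). Wall switches and phloem factors lie mostly left of 0, and senescence factors mostly right of it, with the JUB1 homolog Potri.001G080900 the farthest at 3.46.

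Over all 12 libraries most members that rose averaged at least 5 TPM and most that fell did not, a split that the control mean alone did not show. The 33 that rose had a median level of 12 TPM over the 12 libraries, and 24 of them averaged at least 5 TPM. The 22 that fell had a median level of 2.01 TPM, and 4 averaged at least 5 TPM. The level over all libraries is itself raised in members that rose and lowered in members that fell. By the control mean alone, 14 of the 33 and 9 of the 22 were at 5 TPM or more. Summed over the 136 transcription factors, NAC transcripts made up 912 to 1260 TPM across the controls, 1166 to 2691 TPM across line 2 and 1316 to 1934 TPM across line 7. The control and OE ranges of that sum overlapped at 1166 to 1260 TPM. For 35 of the 89 tested members the highest OE value was in replicate 4 of line 2, and for 34 the lowest was in replicate 1 of line 2.

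The highest members were homologs of VNI2 and ATAF1. In order of the mean over 12 libraries they were VNI2 (Potri.003G166500), VNI2 (Potri.001G061200), ATAF1 (Potri.005G180200), VNI2 (Potri.017G063300) and ATAF1 (Potri.002G081000). Their control means were 94.9 ± 16.1, 60.1 ± 5.80, 81.2 ± 18.8, 43.4 ± 9.47 and 99.1 ± 22.0 TPM (SD, n = 4 each). All 3 VNI2 homologs rose. The ATAF1 homologs did not pass, with log2 fold changes of 0.46 (SE 0.21, limma adjusted p = 0.0804) and -0.31 (SE 0.17, limma adjusted p = 0.142). Potri.005G180200 passed as a rise with median ratio scaling (adjusted p = 0.0429) and without replicate 1 of line 7 (0.0499), and Potri.002G081000 as a fall with library weights (0.00233) and without replicate 4 of line 2 (0.0343).

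Both lines were compared with the same 4 controls, so their counts are not independent. In line 2, 28 members rose and 20 fell, where 18.8% and 32.4% of all genes did (51.2% either way). In line 7, 29 rose and 19 fell, where 18.9% and 24.8% of all genes did (43.8% either way). Set against each other, the lines gave no call in limma at an adjusted p under 0.05, among the members (0 of 89) or among all genes (0%). At an unadjusted p under 0.05, 2 of 89 members and 418 of 24926 genes differed. The difference of line 7 minus line 2 ran from -0.75 to 0.61 on the log2 scale, and 83 of 89 members lay within 0.5 either way. The median half-width of the unadjusted 95% interval was 0.54, and it varied by gene. It is not the detection limit of the adjusted test, which needs larger differences for the same scatter.

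The smallest p between the lines belonged to an NST1 homolog (Potri.011G153300), a fibre switch, which was lower in line 7 by a log2 difference of -0.61 (95% interval -0.93 to -0.30, limma unadjusted p = 0.00119). Another NST1 homolog (Potri.014G104800) followed at -0.52 (95% interval -1.0 to -0.04, limma unadjusted p = 0.0361). A further NST1 homolog (Potri.001G448400) was at -0.75 (95% interval -1.5 to 0.0). Homologs of ANAC014 (Potri.001G452700) and SOG1 (Potri.010G129700) completed the 5 smallest, both higher in line 7, at 0.35 each. None of these 5 differences passed the adjustment.

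**Figure D2:**
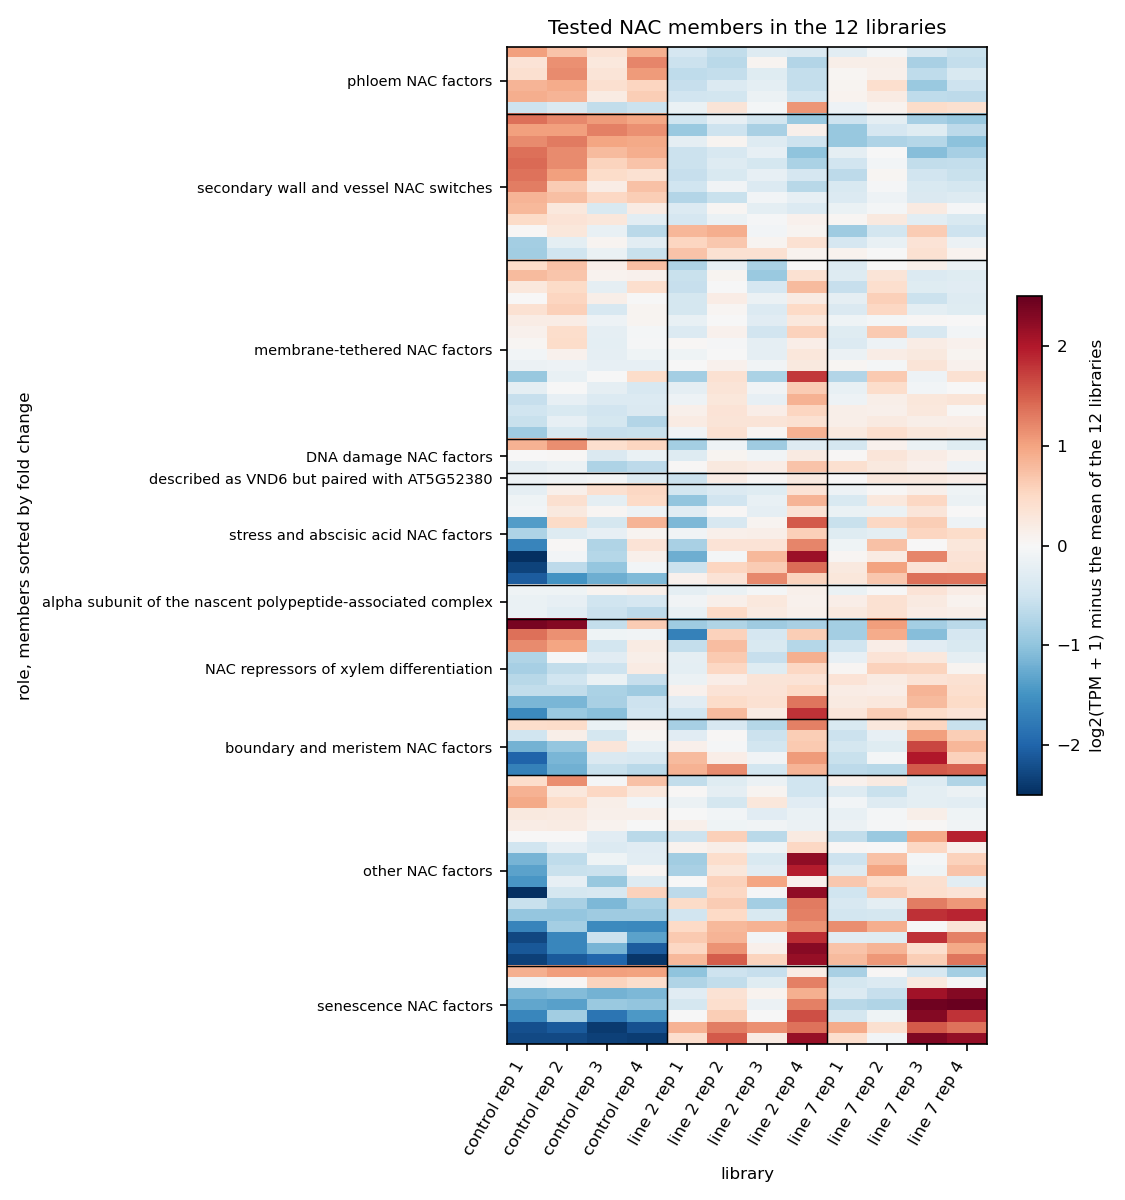
Level of tested NAC members in each of the 12 libraries as log2(TPM + 1) minus the member's mean over all libraries. Columns are libraries by group, rows are members by role list in order of fold change, red is above and blue below the mean, and colours saturate at 2.5 either way. Most rows of the wall switches are red in controls and blue in both lines, and most rows of the senescence factors the reverse, deepest in replicates 3 and 4 of line 7.

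Secondary wall and vessel switches fell more often than they rose. The list held 20 members, homologs of NST1, SND2, VND1, VND4, VND6, VND7 and ANAC075, of which 13 were tested, 8 fell and 2 rose. The median log2 fold change over the 13 was -1.06. For this and each further list, the background is the share of all tested genes, 22.1% rising and 34% falling. Without control replicates 1 and 2 that background is 15.8% rising and 12.6% falling. Every OE library lay below every control for all 8 that fell. Of 11 tested without control replicates 1 and 2, 6 fell and 1 rose, and the counts were the same without either of them. In bulk leaf RNA, fewer cells of a type and less of the RNA per cell cannot be told apart.

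The NST1 homolog Potri.011G153300 had 12.1, 13.2, 10.4 and 10.1 TPM in the controls, 3.94, 5.04, 3.60 and 3.0 TPM in line 2, and 2.0, 2.38, 2.5 and 1.84 TPM in line 7. All controls were above all OE libraries, and line 7 was below line 2 in every library. It changed by -1.66 on the log2 scale in both lines (SE 0.12, limma adjusted p = 3.72e-06), -1.36 in line 2 and -1.97 in line 7.

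SND2, which acts downstream of the NST switches in Arabidopsis fibres, had 4 poplar homologs, and 3 of them fell. Potri.017G016700 held 7.64, 6.61, 5.93 and 5.48 TPM in the controls, 1.36, 1.87, 1.42 and 0.748 TPM in line 2, and 1.32, 1.81, 0.876 and 0.739 TPM in line 7. The controls did not overlap with either line, and the lines overlapped with each other. The gene fell by 1.73 on the log2 scale (SE 0.16, limma adjusted p = 1.65e-05). The other homologs that fell, Potri.004G049300 and Potri.007G135300, changed by -1.67 (SE 0.19) and -1.60 (SE 0.22). The fourth, Potri.011G058400, was at 1.59 ± 0.53 TPM in controls and 1.07 ± 0.34 TPM over the 8 OE libraries (limma adjusted p = 0.13), and it fell only without control replicate 4 (adjusted p = 0.03).

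Vessel factors of the VND group were low in these leaves, and 3 of 10 homologs could be tested, of which 2 fell. The VND4 homolog Potri.001G120000 had 3.93, 3.21, 1.71 and 2.02 TPM in the controls, and 0.072 to 0.776 TPM over all OE libraries. No OE library reached 1 TPM, and the gene fell by 1.44 on the log2 scale (SE 0.18, limma adjusted p = 0.000101). The VND1 homolog Potri.005G116800 changed by -1.06 (SE 0.19, limma adjusted p = 0.000894), while the other VND1 homolog, Potri.007G014400, did not pass (-0.33, SE 0.18) unless control replicate 3 was left out (-0.53, adjusted p = 0.0154). The remaining 7 homologs of VND4, VND6 and VND7 were below the filter, at most at 2.13 TPM, and 5 of them were lower in every OE library than in every control. Those 7 have no test, and the share of such genes among all untested genes was not computed. ANAC075, which acts upstream of VND7 in Arabidopsis, had 2 homologs, and both fell. Potri.006G152700 averaged 3.51 ± 0.47 TPM in the 4 controls and 1.22 ± 0.32 TPM in the 8 OE libraries (± SD), and Potri.018G068700 2.44 ± 1.11 and 0.439 ± 0.241 TPM.

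**Figure D3:**
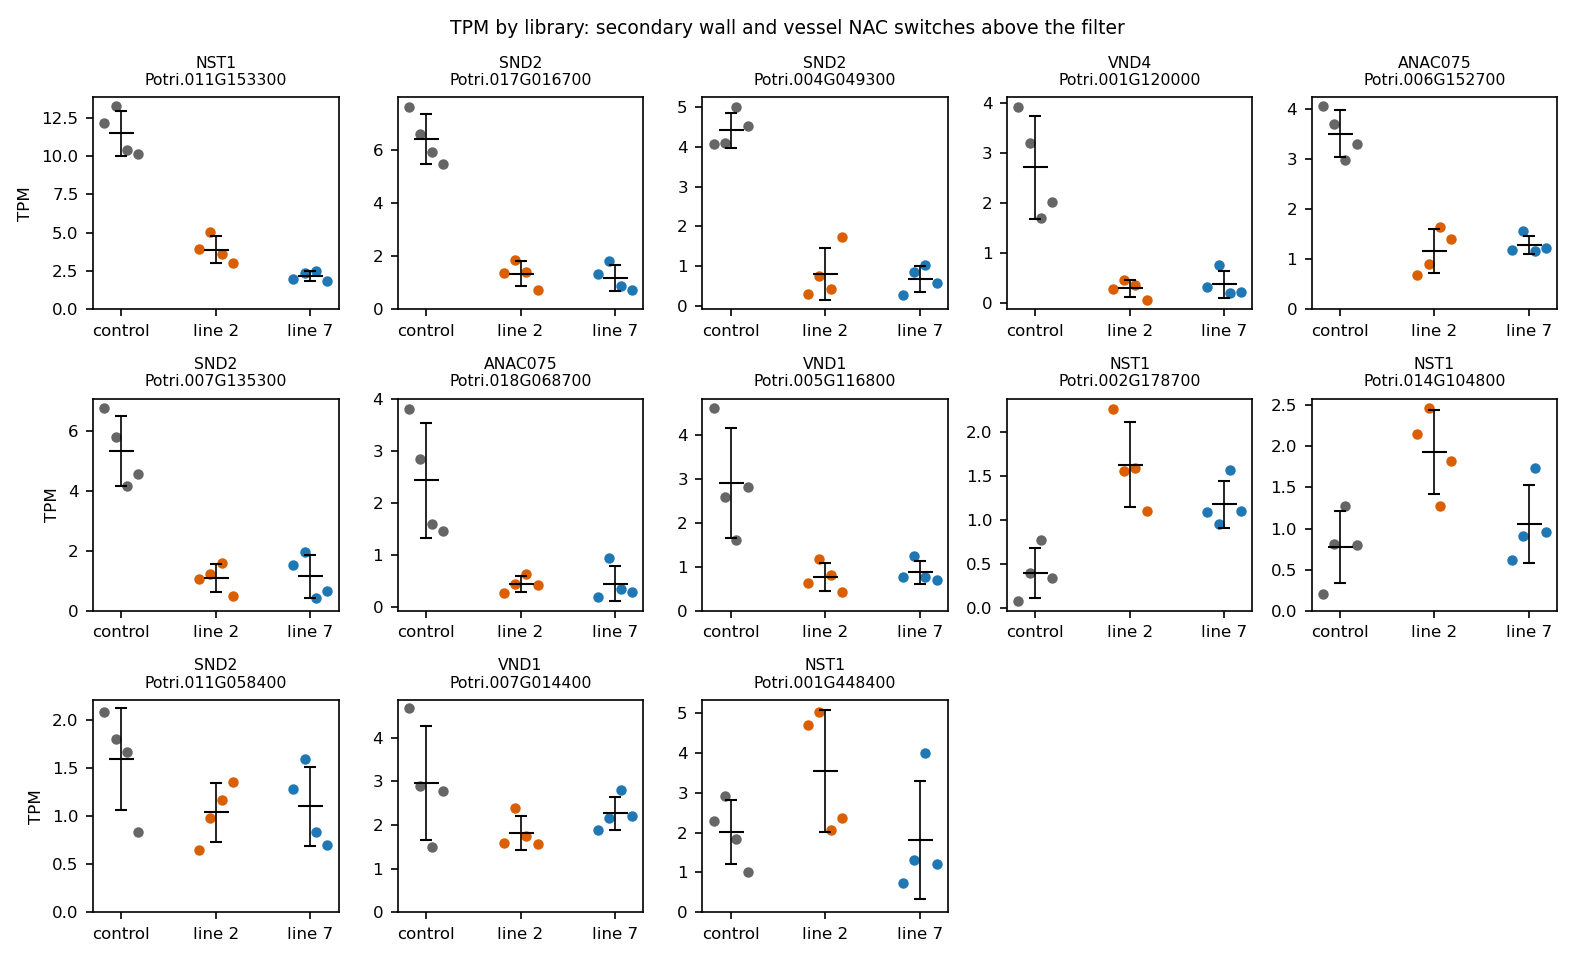
TPM per library of the 13 tested wall and vessel NAC switches, a panel for each gene in order of p, for the control, line 2 and line 7. Dots are libraries and the bar is the mean ± SD of 4 libraries. In the panels of the 8 switches that fell the control dots lie above all OE dots, as for the NST1 homolog Potri.011G153300 at 10.1 to 13.2 TPM against 1.84 to 5.04 TPM.

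NST1 homologs did not move together. Potri.002G178700 had 0.081, 0.405, 0.771 and 0.343 TPM in the controls, 2.26, 1.56, 1.59 and 1.1 TPM in line 2, and 1.09, 0.958, 1.56 and 1.1 TPM in line 7. It was low throughout, and all OE libraries were above all controls. It rose by 0.78 on the log2 scale (SE 0.15, limma adjusted p = 0.00165). Potri.014G104800 was just inside the threshold at 0.48 (SE 0.19, limma adjusted p = 0.0493) and the call was lost in 9 of 12 fits that each left out 1 library (adjusted p up to 0.183, without control replicate 1). Its groups overlapped. Potri.001G448400 did not pass (0.20, SE 0.30). By control mean, the homolog that fell was the highest of the 4, at 11.5 ± 1.48 TPM, while the others were between 0.40 and 2.0 TPM.

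Genes that the wall switches are known to control moved largely with the switches that fell. Of 16 tested genes of the secondary wall list, homologs of wall MYB factors, cellulose synthases and xylem proteases, 14 fell and 2 rose. KNAT7 (Potri.001G112200), a homeobox regulator of the secondary wall, fell from 18.8 ± 1.95 to 6.71 ± 1.24 TPM (log2 fold change -1.37, SE 0.13, limma adjusted p = 1.45e-05). MYB46 (Potri.001G258700), a direct target of the NST switches, fell from 1.88 ± 0.37 to 0.308 ± 0.15 TPM. The 2 that rose were homologs of MYB63, an activator of lignin genes, Potri.005G096600 (2.82, SE 0.59) and Potri.007G067600 (2.08, SE 0.52). Another MYB63 homolog, Potri.019G118900, fell (-1.91, SE 0.40). None of these 3 calls held without control replicates 1 and 2 (adjusted p = 0.0505, 0.0889 and 0.0513), which left 8 of 13 tested falling and 0 rising. The list was chosen with results of these data known and is no independent evidence of its direction.

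Xylem marker genes moved with the switches. All 8 tested markers, cellulose synthases of the secondary wall and xylem cysteine proteases, fell, and each is also in the secondary wall list. Of these 8, 6 also fell without control replicates 1 and 2. They summed to 215 to 284 TPM across the controls, 19.9 to 77.6 TPM across line 2 and 14.5 to 85.8 TPM across line 7. None of the 8 was at 0 as a group mean. Their part in the change of the NAC switches was not tested.

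VNI2 and XND1 hold back vessel formation in Arabidopsis. Of their 10 homologs 9 were tested, 5 rose (4 of VNI2 and 1 of XND1) and 1 fell, and the median log2 fold change was 0.66. The VNI2 homolog Potri.001G061200 had 64.9, 65.1, 57.1 and 53.5 TPM in the controls, 107, 126, 127 and 141 TPM in line 2, and 113, 111, 179 and 133 TPM in line 7. All OE libraries were above all controls, and the lines overlapped. It rose by 1.08 (SE 0.14, limma adjusted p = 0.000125).

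The other VNI2 homologs that rose were Potri.003G166500 (0.73, SE 0.13), Potri.017G063300 (1.36, SE 0.25) and Potri.001G325100 (1.52, SE 0.35). The last of these no longer passed without control replicates 1 and 2 (1.27, limma adjusted p = 0.0685). Of 3 tested XND1 homologs the most abundant, Potri.001G206900, did not pass, at 7.37 ± 4.34 TPM in controls and 3.88 ± 2.96 TPM in OE libraries (-0.87, SE 0.51), nor did Potri.005G064100 (0.35, SE 0.28). Potri.007G105000 was low, at 0.364 ± 0.467 TPM in controls and 1.13 ± 0.52 TPM in OE libraries. It rose by 0.66 over both lines (SE 0.23, limma adjusted p = 0.0317) but did not pass in line 2 alone (adjusted p = 0.0991). Leaving out 1 library at a time ended the call in 7 of 12 fits (adjusted p up to 0.11), and so did leaving out control replicates 1 and 2 (adjusted p = 0.35), which left 3 of 8 tested homologs on this list rising and 0 falling.

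The VNI2 homolog that fell, Potri.012G103500, was uneven among controls. It had 8.61, 8.15, 0.238 and 1.89 TPM in the controls, 0, 0.108, 0 and 0.058 TPM in line 2, and 0.029, 2.85, 0.030 and 0.163 TPM in line 7. Control replicates 1 and 2 were high, replicate 2 of line 7 was above 2 of the 4 controls, and all other OE libraries were below every control. It changed by -1.77 on the log2 scale (SE 0.54, limma adjusted p = 0.0158), and without control replicates 1 and 2 it was below the filter.

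**Figure D4:**
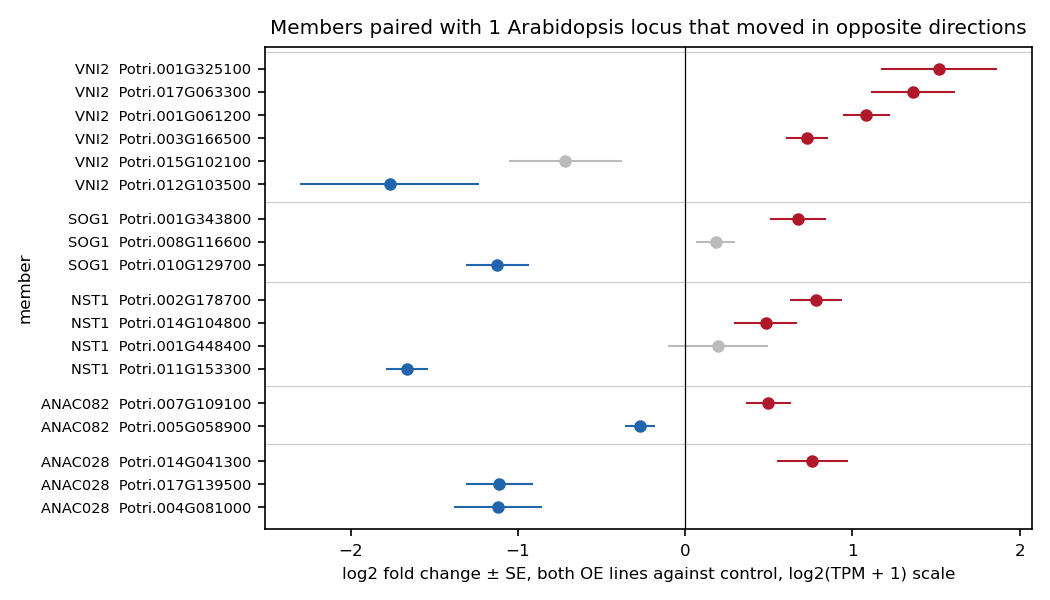
Log2 fold change of both OE lines against the control (x axis, log2(TPM + 1) scale) for tested homologs of the 5 loci with members that passed in opposite directions. Points are genes, bars are ± SE, red rose, blue fell and grey did not pass. SOG1, for example, has a homolog at 0.67 and another at -1.12.

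Senescence factors held the largest rises. The list had 9 members, homologs of JUB1, NAP and ANAC087, of which 7 were tested, 5 rose and 1 fell, with a median log2 fold change of 1.72. All 4 homologs of JUB1 rose. Their controls never exceeded 0.457 TPM, so they passed the filter only through OE libraries, where they are high. The filter thus favoured a rise for them, and the counts and median of this list are not comparable with the background. With control replicates 1 and 2 left out, 3 rose and 1 fell of 7 tested. The members that rose have opposite roles in Arabidopsis, JUB1 delaying leaf senescence and NAP promoting it.

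The JUB1 homolog Potri.003G149700 had 0.367, 0.457, 0.197 and 0.387 TPM in the controls, 10.5, 14.3, 12.8 and 15.1 TPM in line 2, and 10.9, 7.22, 17.2 and 15 TPM in line 7. No control reached 1 TPM, and the lines overlapped. It rose by 3.33 (SE 0.19, limma adjusted p = 7.49e-07), the smallest p of any tested member. Potri.001G080900 had 0.087, 0.086, 0.037 and 0 TPM in the controls, 5.97, 14.1, 4.98 and 22.4 TPM in line 2, and 5.95, 3.96, 25.1 and 22.8 TPM in line 7. It rose by 3.46 (SE 0.48, limma adjusted p = 0.000217), the largest fold change of any tested member, with OE libraries that spread widely.

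The other JUB1 homologs were lower and more uneven. Potri.002G057200 had 0.123 to 0.203 TPM in controls, 1.07, 2.24, 1.69 and 3.72 TPM in line 2, and 1.01, 0.701, 9.82 and 11.4 TPM in line 7. Replicates 3 and 4 of line 7 were far above the rest, and all OE libraries were above all controls. It rose by 1.69 over both lines (SE 0.51, limma adjusted p = 0.0151) but did not pass in line 2 alone (1.39, adjusted p = 0.0668). Potri.005G205400 showed the same uneven libraries, at 12.9 and 13.3 TPM in replicates 3 and 4 of line 7 and 0.530 to 5.13 TPM in the other OE libraries. It rose by 1.72 (SE 0.63, limma adjusted p = 0.0357) and did not pass in line 2 alone (1.42, adjusted p = 0.119). Neither passed without control replicates 1 and 2 (adjusted p = 0.108 and 0.22), and leaving out 1 library at a time ended the call of Potri.005G205400 in 8 of 12 fits.

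The NAP homolog Potri.008G089000 had 1.77, 3.69, 1.42 and 2.16 TPM in the controls, 7.55, 12.1, 7.56 and 25.3 TPM in line 2, and 5.37, 6.97, 41.0 and 29.1 TPM in line 7. Every OE library was above every control, and the highest values were in replicates 3 and 4 of line 7 and replicate 4 of line 2. It rose by 2.17 (SE 0.51, limma adjusted p = 0.00428). The ANAC087 homolog Potri.019G031600, whose Arabidopsis relative takes part in programmed cell death of the root cap, fell by 1.48 (SE 0.22, limma adjusted p = 0.000273). It had 5.75, 6.55, 6.41 and 6.39 TPM in the controls against 0.827 to 3.19 TPM in OE libraries. The other ANAC087 homolog, Potri.013G054200, did not pass (-0.36, SE 0.33). It passed as a fall without replicate 4 of line 2 (-0.58, limma adjusted p = 0.0176) and with library weights (-0.63, adjusted p = 0.0408).

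**Figure D5:**
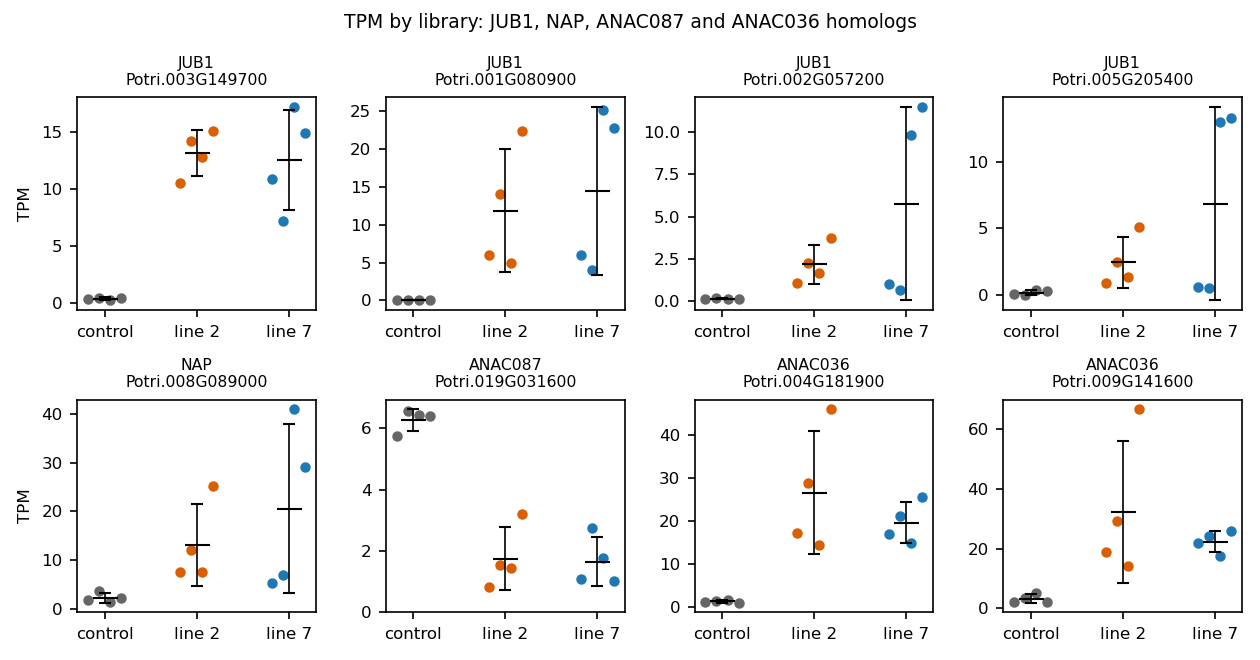
TPM per library of senescence and growth NAC factors, a panel for each gene, for the control, line 2 and line 7. Dots are libraries and the bar is the mean ± SD of 4 libraries. JUB1 and ANAC036 homologs are higher in all OE libraries than in all controls, and ANAC087 (Potri.019G031600) is lower.

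No tested gene of the leaf senescence list passed as a rise. The list pooled enzymes of senescing leaves with homologs of the regulators GLK1 and EIN3, so not all its genes are downstream of NAC factors. Of 15 tested genes 0 rose and 6 fell in limma at an adjusted p under 0.05, and the median log2 fold change was -0.43. Of all genes tested, 22.1% rose and 34% fell. No EIN3 homolog passed, and falls of GLK1 are among the 6. BFN1 (Potri.011G044500), a nuclease of senescing tissue, fell from 2.43 ± 0.64 TPM in controls to 0.148 ± 0.261 TPM over the OE libraries. Among enzymes that break down chlorophyll, PAO (Potri.009G004101), NYC1 (Potri.018G081200) and NYE1 (Potri.001G112600) fell by 0.72, 1.38 and 0.85, and the NYC1 call was lost without control replicates 1 and 2 (adjusted p = 0.125). More abundant homologs did not pass, PAO Potri.004G217200 at 27.1 ± 4.22 TPM in controls and 27.4 ± 3.03 TPM in OE libraries, and NYE1 Potri.003G119600 at 40.6 ± 11.7 and 58.1 ± 18.2 TPM (0.50, adjusted p = 0.0953). GLK1, an activator of chloroplast genes that the NAC factor ORE1 counteracts in Arabidopsis, had 3 tested homologs. Of these, Potri.007G136900 (-1.52) and Potri.T098900 (-2.30) fell, and Potri.017G015800 did not pass (-0.43, limma adjusted p = 0.0693). A fall of GLK1 cannot be read in the same way as a fall of an enzyme. The list had 3 falling and 0 rising of 13 tested without control replicates 1 and 2. The 3 were NYE1 Potri.001G112600 and the GLK1 homologs Potri.007G136900 and Potri.T098900, and BFN1 and PAO Potri.009G004101 were not tested in that fit. All 8 homologs of SAG12, the usual marker of senescing leaves, never exceeded 0.332 TPM and have no test.

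Of the 12 homologs of stress and abscisic acid factors, 9 were tested, 2 rose and 0 fell. The share that rose, 22.2%, was close to the 22.1% of all genes, while 34% of all genes fell. ANAC047 (Potri.013G054000), which in Arabidopsis drives petiole cell expansion during flooding, had 0.597, 1.40, 1.90 and 2.17 TPM in the controls, 6.33, 7.57, 14.6 and 9.01 TPM in line 2, and 7.30, 9.82, 16.6 and 16.4 TPM in line 7. Every OE library was above every control, and it rose by 2.22 (SE 0.27, limma adjusted p = 8.68e-05). Its other homolog, Potri.019G031400, did not pass (-0.21, SE 0.30). ATAF1 (Potri.005G069500) rose from 16.1 ± 9.29 TPM to 43.8 ± 17.2 TPM (log2 fold change 1.5, SE 0.41, limma adjusted p = 0.00915). It did not pass without control replicates 1 and 2 (1.01, adjusted p = 0.107), which left 1 of 9 rising.

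None of the 3 tested RD26 homologs passed, with log2 fold changes of 1.31 (SE 0.64) for Potri.001G404100, 0.20 (SE 0.50) for Potri.011G123300 and -0.03 (SE 0.14) for Potri.014G025700. The first passed without replicate 1 of line 2 (adjusted p = 0.0392). The sign of the last 2 depended on the libraries used and their weights, and that of Potri.014G025700 also on median ratio scaling. Libraries of a group spread widely, as for Potri.001G404100 at 1.1 to 15.6 TPM in controls and 5.51 to 65.7 TPM in line 2.

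Of 21 homologs of membrane-tethered factors, 16 were tested, 5 rose and 2 fell, with a median log2 fold change of 0.01. These were 31.2% and 12.5% of those tested, against 22.1% and 34% of all genes. The fold changes of those that rose were small, from 0.25 to 0.90. NTL9 (Potri.014G107500), a calmodulin-binding factor, had 1.88, 2.68, 2.15 and 1.58 TPM in the controls, 3.88, 4.33, 4.30 and 4.54 TPM in line 2, and 3.71, 4.0, 3.71 and 3.80 TPM in line 7. The libraries of each line lay close together and above all controls. It rose by 0.72 (SE 0.10, limma adjusted p = 0.000216).

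ANAC078, an activator of proteasome genes under stress, had 2 homologs, and both rose. Potri.008G031800 changed by 0.65 (SE 0.10, limma adjusted p = 0.000302) and Potri.010G229900 by 0.25 (SE 0.10, adjusted p = 0.0448). Both homologs of ANAC017 also rose, Potri.002G061300 from 16.1 ± 2.46 to 31.3 ± 6.88 TPM (0.90, SE 0.17, limma adjusted p = 0.00112) and Potri.005G200100 from 25.8 ± 2.78 to 39.0 ± 10.5 TPM (0.55, SE 0.18, adjusted p = 0.0249). The second homolog of each pair did not pass without control replicates 1 and 2. Potri.010G229900 was also lost in 9 of 12 fits that left out 1 library, and Potri.005G200100 without control replicate 1 (adjusted p = 0.081). Of 6 tested ANAC014 homologs 2 fell, Potri.001G452700 (-0.79, SE 0.18) and Potri.002G154100 (-0.63, SE 0.25, limma adjusted p = 0.0491), and neither passed without control replicates 1 and 2. Leaving out 1 library at a time ended the call of Potri.002G154100 in 7 of 12 fits. Of the 16 tethered factors, 3 rose and 0 fell without those controls.

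Genes of the mitochondrial response, which ANAC017 controls in Arabidopsis, rose more often than they fell. Of 16 tested, 10 rose and 1 fell, with a median log2 fold change of 0.98. Of 3 tested homologs of AOX1A, the alternative oxidase of mitochondria, 2 rose, Potri.012G001500 from 8.88 ± 1.30 to 44.6 ± 16.5 TPM and Potri.015G019800 from 22.4 ± 10.8 to 119 ± 39.4 TPM, while Potri.012G001600 did not pass (0.12, SE 0.22). A homolog of OM66, a protein of the outer mitochondrial membrane, rose from 0.114 ± 0.120 to 4.99 ± 2.35 TPM (Potri.007G012400). The other tested OM66 homologs, Potri.007G020900, Potri.T171900 and Potri.T172000, did not pass (limma adjusted p = 0.106, 0.286 and 0.570). Potri.T171900 and Potri.T172000 had higher control levels, 6.86 ± 3.29 and 13.8 ± 5.80 TPM. Potri.T171900 rose without control replicates 1 and 2 (0.85, limma adjusted p = 0.0259). UGT74E2, a glucosyltransferase, had the smallest p of the list with Potri.007G141700 (2.37, SE 0.14, limma adjusted p = 8.93e-07) and also the only gene of the list that fell, Potri.007G140650 (-1.34, SE 0.19). Most of the 10 genes that rose are homologs of UGT74E2 and AOX1A, so the count is not one of 10 separate loci. In the fit without control replicates 1 and 2, 9 of 15 tested rose and 0 fell. Potri.007G140650 was below the filter in that fit, so its fall was not tested there.

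Homologs of phloem NAC factors mostly fell. ANAC020, ANAC028 and ANAC057 homologs were grouped with those of NAC86, which in Arabidopsis acts with NAC45 in removing the nucleus from the sieve element. Of 9 members 6 were tested, 5 fell and 1 rose, with a median log2 fold change of -1.07. ANAC020 (Potri.008G081500) had 2.57, 1.86, 1.24 and 2.24 TPM in the controls, and 0.141 to 0.687 TPM over the OE libraries. All OE libraries were below all controls, and it fell by 1.12 (SE 0.14, limma adjusted p = 0.000121). Both NAC86 homologs stayed at or below 0.303 TPM.

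ANAC028 homologs parted. Potri.017G139500 had 1.73, 3.65, 1.56 and 3.30 TPM in the controls, 0.329, 0.360, 0.670 and 0.361 TPM in line 2, and 1.12, 1.26, 0.329 and 0.582 TPM in line 7. It fell by 1.11 (SE 0.20, limma adjusted p = 0.00098), and Potri.004G081000 by 1.12 (SE 0.26, adjusted p = 0.00425). The third, Potri.014G041300, was the highest of them at 20.4 ± 1.69 TPM in controls and rose to 36.6 ± 12.4 TPM (0.76, SE 0.21, limma adjusted p = 0.0103). The ANAC057 homologs Potri.012G038100 and Potri.015G030200 fell by 1.02 (SE 0.22) and 0.97 (SE 0.20).

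Phloem marker genes moved with these factors. Of 20 tested, 16 fell and 0 rose, and they summed to 434 to 818 TPM across the controls, 142 to 311 TPM across line 2 and 117 to 457 TPM across line 7. The control and line 7 ranges overlapped. Most of the 20 are homologs of SEOR1 alone, and the rest are homologs of APL, SUC2 and PP2A1, so the count is not one of 20 separate markers. APL (Potri.010G174100), a regulator of phloem identity, fell by 0.74 (SE 0.12, limma adjusted p = 0.000486). With control replicates 1 and 2 left out, 2 of 5 tested phloem NAC factors fell and 0 rose, and 4 of 19 tested markers fell, the homologs of APL and PP2A1, while SUC2 and all tested SEOR1 homologs did not pass. The part of the markers in the change of these factors was not tested.

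Boundary and meristem factors were mostly too low to test in these leaves. Of 12 homologs 5 were tested, 2 rose and 0 fell, where 22.1% of all genes rose and 34% fell. All 5 homologs of CUC2 and CUC3, which keep organs apart at the meristem, stayed at or below 0.309 TPM. ANAC100 (Potri.017G086200), of the group targeted by miR164, had 4.99, 7.43, 12.2 and 11.1 TPM in the controls, 34.3, 42.7, 13 and 33.8 TPM in line 2, and 11.2, 11, 54.6 and 52.9 TPM in line 7. The groups overlapped through 2 libraries of line 7, and it rose by 1.54 (SE 0.49, limma adjusted p = 0.0189). NARS1 (Potri.001G404400), which acts in the seed coat of Arabidopsis, rose by 1.46 (SE 0.46, adjusted p = 0.0187).

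Both of these calls depended on single controls. Leaving out control replicate 1 gave adjusted p = 0.0684 for ANAC100 (Potri.017G086200) and 0.0753 for NARS1 (Potri.001G404400), and leaving out replicate 2 gave 0.0524 and 0.052. Without both, 0 of 4 tested homologs passed. Of other boundary genes, 2 were tested, both homologs of BOP2, which shapes leaf bases. Potri.006G043400 rose from 0.870 ± 0.511 to 2.89 ± 1.15 TPM (1.05, SE 0.24, limma adjusted p = 0.00375), and Potri.016G040500 did not pass at 2.07 ± 0.89 and 1.13 ± 0.52 TPM (-0.52, SE 0.21, adjusted p = 0.0507). The 4 root cap homologs, of FEZ and SMB, stayed at or below 0.329 TPM.

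SOG1, the plant regulator of the response to DNA damage, had 3 homologs, and they moved in different ways. Potri.010G129700 had 7.22, 9.0, 5.04 and 5.52 TPM in the controls, 1.49, 3.10, 1.42 and 2.58 TPM in line 2, and 2.31, 3.82, 3.04 and 2.62 TPM in line 7. All OE libraries were below all controls, and it fell by 1.12 (SE 0.19, limma adjusted p = 0.000618). Potri.001G343800 rose from 1.09 ± 0.44 to 2.33 ± 0.61 TPM (0.67, SE 0.17, adjusted p = 0.00556). Potri.008G116600, the highest of the 3 at 13.1 ± 1.74 TPM in controls, did not pass (0.18, SE 0.12) but rose with median ratio scaling (0.35, adjusted p = 0.00759) and with library weights (0.27, adjusted p = 0.0212). Of its target genes only PARP1 (Potri.002G041300), an enzyme of DNA repair, could be tested. It fell by 0.67 (SE 0.23, adjusted p = 0.0257), a call lost without control replicates 1 and 2 (-0.11, adjusted p = 0.547).

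Of the other 34 members 17 were tested, 8 rose and 4 fell, with a median log2 fold change of 0.90. These were 47.1% and 23.5% of those tested, against 22.1% and 34% of all genes. ANAC036, whose overexpression dwarfs Arabidopsis, had 2 tested homologs, and both rose. Potri.004G181900 had 1.06, 1.42, 1.64 and 0.926 TPM in the controls, 17.2, 28.7, 14.3 and 45.9 TPM in line 2, and 17.0, 21.0, 14.9 and 25.5 TPM in line 7. The controls were far below every OE library, and replicate 4 of line 2 was the highest. It rose by 3.32 (SE 0.27, limma adjusted p = 5.57e-06), and Potri.009G141600 by 2.63 (SE 0.34, adjusted p = 0.000127).

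ANAC090, a negative regulator of leaf senescence in Arabidopsis, had a homolog, Potri.016G076100, at 0.091, 0.903, 0.130 and 0.113 TPM in the controls, 3.81, 5.01, 5.23 and 6.44 TPM in line 2, and 6.67, 5.42, 2.40 and 3.28 TPM in line 7. All OE libraries were above all controls, among which replicate 2 was highest. It rose by 2.14 (SE 0.23, limma adjusted p = 4.29e-05). A more abundant homolog, Potri.006G209200, did not pass (1.11, SE 0.60). ANAC082, another negative regulator of senescence, had a homolog that rose by 0.50 (Potri.007G109100, SE 0.14) and another that fell by 0.27 (Potri.005G058900, SE 0.09). Neither passed without control replicates 1 and 2, and the second was also lost without either of them (adjusted p = 0.0683 and 0.0649).

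ANAC025 (Potri.004G038000) rose by 2.17 (SE 0.48, limma adjusted p = 0.00317), with 0.049 to 2.49 TPM in controls and 3.10 to 17.3 TPM in OE libraries. It did not pass without control replicates 1 and 2 (1.66, adjusted p = 0.076). ANAC096 (Potri.001G144400), which responds to dehydration and abscisic acid, rose by 1.1 (SE 0.27, adjusted p = 0.0056). Both homologs of LOV1, a regulator of flowering time, fell, Potri.004G230800 by 0.72 (SE 0.15, adjusted p = 0.00221) and Potri.003G046700 by 0.56 (SE 0.18, adjusted p = 0.0236). ANAC071 (Potri.003G089800), which takes part in the healing of cut stems, fell by 0.87 (SE 0.23, adjusted p = 0.00878). Of these calls, LOV1 (Potri.003G046700) and ANAC071 were lost without control replicates 1 and 2, and the former also without either of them (adjusted p = 0.0858 and 0.065). Of the 17, 4 rose and 1 fell without both.

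Some members were detected in OE libraries alone but were too low to test. Potri.005G098000, paired with AT3G12910, was listed at 0 in all controls and had 0.240, 0.999, 0.175 and 3.18 TPM in line 2 and 0.252, 0.054, 10.4 and 8.58 TPM in line 7. Its tested neighbour by locus, Potri.007G066300, rose by 1.39 (SE 0.50, limma adjusted p = 0.0318), again highest in replicates 3 and 4 of line 7, and was lost without any 1 of the 4 controls (adjusted p up to 0.0715). An ANAC038 homolog, Potri.006G277000, was listed at 0 in all controls and reached 4.49 TPM in replicate 4 of line 2. Among the 50 untested members, 4 were above all controls in every OE library and 6 were below. These shares were 14.6% and 19.1% among all tested genes. They were not computed among all untested genes, so nothing is read from these counts. A library listed at 0 may hold transcripts below detection, and its depth is unknown.

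At 15 loci at least 2 poplar homologs passed. At 10 of them the homologs passed in the same direction, higher for JUB1, ANAC036, ANAC017, ANAC078 and the alpha subunit of the ribosome chaperone, and lower for SND2, ANAC014, LOV1, ANAC057 and ANAC075. At 5 loci they passed in opposite directions, namely NST1, VNI2, ANAC028, SOG1 and ANAC082. Without control replicates 1 and 2, only NST1 and SOG1 of these kept calls in both directions. In that fit ANAC014 and ANAC057 kept no call. The share of such loci over all genes was not computed. Salmon shares out reads among like transcripts, which leaves the values of close copies uncertain. The chaperone homologs Potri.001G034400 (0.48, SE 0.10) and Potri.003G190800 (0.61, SE 0.14) rose, and Potri.006G032000 did not pass (0.01, SE 0.12).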

How the data were processed

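The authors deposited a table of TPM (34749 genes, 12 libraries) with Arabidopsis loci, names and descriptions. Per the labels, cDNA came from total RNA by a SMARTer oligo(dT) method. Per the submitters' processing notes, cutadapt, FastQC and Salmon were used, and their versions, the build and the annotation are not given in the sources read. Genes at 1 TPM or more in at least 4 libraries (24926) were fitted on log2(TPM + 1) as 3 group means with limma 3.58.1 in R 4.3.3, using lmFit and then eBayes with a trend of variance on mean. P-values are two-sided, with Benjamini-Hochberg adjustment over all tested genes and a threshold of 0.05. Fold changes on this scale understate changes of low genes. TPM add up to a fixed total, so a rise of some genes lowers others. The fit was tested on simulated data. Members, role lists, target lists and markers were chosen with earlier results of these data known. Named were up to 4 members of smallest p per role list, the 10 largest rises and falls passing in every contrast with the control, the 5 highest members, the 5 smallest p between lines, homologs passing in opposite directions, and up to 4 genes per other list. Other genes named with values were chosen after their values were seen.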

Additional observations from a re-analysis of the deposited data

Results flagged for a closer look

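In 4 of 147 groups of 4 libraries examined among the named members, 1 library lay farther from the others than Dixon's criterion allows, where chance alone flags about 1 group in 20. For the VNI2 homolog Potri.012G103500, replicate 2 of line 7 had 2.85 TPM and the other 3 libraries 0.029 to 0.163 TPM. For the ANAC057 homolog Potri.015G030200, replicate 3 of line 2 had 0.719 TPM and the others 0.347 to 0.381 TPM. For the ANAC090 homolog Potri.016G076100, control replicate 2 had 0.903 TPM and the others 0.091 to 0.130 TPM. For the ANAC028 homolog Potri.017G139500, replicate 3 of line 2 had 0.670 TPM and the others 0.329 to 0.361 TPM.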

How the results depend on the processing

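Without control replicates 1 and 2, 18 members rose and 11 fell over both lines, 15 and 12 in line 2, and 14 and 9 in line 7; 29 of the 55 members called with all libraries kept their call, and the 51 of them still tested kept their sign. Requiring a mean TPM of 5 left 3 members falling over both lines, and 2 in each line. An adjusted p under 0.01 left 16 rising in line 2 and 15 in line 7. Leaving out 1 library at a time gave 25 to 35 rising and 15 to 24 falling over both lines, 22 to 29 and 15 to 23 in line 2, and 20 to 29 and 12 to 19 in line 7, with 12 falling without control replicate 2. No member was called between the lines under any setting. Median ratio scaling moved the median of all genes from -0.13 to 0.02 and the share of calls that were rises from 39.4% to 52.6% over all genes and from 60% to 65.5% over the members (38 rising, 20 falling). Of 1501 values of 71 named or called genes under other settings, 1360 kept direction and side of the threshold, 107 lost a call, 17 gained one and 17 reversed, all 17 in genes that did not pass. The chaperone gene Potri.006G032000 (0.01 with all libraries) was at -0.061 with library weights, -0.090 without control replicates 1 and 2, and -0.030 to 0.056 leaving out 1 library. The RD26 homolog Potri.011G123300 (0.20) was at -0.34, -0.13 and -0.23 to 0.52, and Potri.014G025700 (-0.03) at 0.059, 0.037 and -0.095 to 0.043, in the same order, and at 0.13 with median ratio scaling. The cause was not tested. A fit with the replicate number as a block gave 36 rising and 22 falling over both lines, 32 and 20 in line 2, and 32 and 20 in line 7. The block raised the stress list from 2 to 5 rising, RD26 Potri.001G404100 (adjusted p = 0.0274) and ATAF1 Potri.005G180200 (0.0144) among them, and ANAC090 Potri.006G209200 passed (0.0239). The numbers are not shown to pair samples: 9 of 12 correlations of same-numbered deviations between groups were over 0.1 (-0.472 to 0.415). In 6 of these 12 comparisons the best match was the library of the same number. Adding NAC genes found by locus gave 33 rising and 23 falling. Fits of only the groups compared give no separate value for both lines. Unknown depth limits what can be said of low members.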
